A study of Mus musculus with 4 samples.

Results

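The genes described here encode 10 G protein-coupled receptors of immune cells, several of which sense lipids: the sphingosine 1-phosphate receptors S1pr1 and S1pr4, the oxysterol receptor Gpr183, the lysophospholipid receptors Gpr174, Gpr34 and Gpr55, the lipid and proton receptor Gpr132, and Gpr18, Gpr171 and Gpr15, long listed as orphans. They were taken by gene symbol from the 26214 symbols in each count file, and all 10 were found. The set was chosen by name with the difference in read counts between MHE and PBS in these same libraries already known, so the receptors' own differences between the groups are given as a description and support nothing.

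RNA was sequenced from the stromal vascular fraction of mouse inguinal white adipose tissue, the cells left once digested fat has lost its floating adipocytes. One group of mice received a medicinal herb extract (MHE, 2 libraries) and the other phosphate-buffered saline (PBS, 2 libraries). The labels give no strain, age, diet, dose, duration or composition of the extract. They call the libraries biological replicates without saying that each came from its own animal, so p-values measure the spread between these libraries, which may be technical. The labels also speak of triplicate libraries, of which 2 a group are analysed here.

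Receptors of this class sit in the membrane, bind a ligand outside the cell and signal through G proteins inside it. Lymphocytes use them to read where they are: sphingosine 1-phosphate is high in lymph and draws cells out of lymph nodes, while oxysterols and lysophospholipids guide or restrain them within the tissue. Fat depots hold lymph nodes and scattered immune cells besides adipocyte progenitors and vessels.

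Libraries held 27161882 to 31052064 counts with the extract and 27695144 to 33391075 with saline. Levels are given as CPM, read counts scaled to library size with edgeR's TMM factors. Adipocyte markers took 1.45% to 2.25% of counts with the extract and 2.57% to 3.36% with saline, against 0.114% to 0.188% and 0.176% to 0.233% for adipocyte progenitor markers, so transcripts of adipocytes were present although the fraction should lack them.

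Transcripts of 8 of the 10 receptors were higher in both MHE libraries than in both PBS libraries, and those of S1pr1 and Gpr34 overlapped between the groups. The same non-overlap upward was found in 33.1% of the 16196 genes tested, and the non-overlap downward, seen in 0 receptors, in 28.9%. With edgeR's quasi-likelihood test over all genes (Benjamini-Hochberg adjusted p under 0.05), 7 receptors were past the threshold and higher with the extract (Gpr15, Gpr18, Gpr55, Gpr132, Gpr171, Gpr174 and S1pr4) and 0 were lower, beside 3.97% of all tested genes higher and 0.963% lower (4.93% in either direction). Nothing is read from that share, since the choice of receptors used the same contrast. The receptors' median log2 fold change was 4.28, against -0.02 for all genes tested, and their range was -0.13 to 6.93. Without MHE replicate 1 or without MHE replicate 2 no gene of the whole table passed, these receptors included, while leaving out PBS replicate 1, or PBS replicate 2 instead, let 8 receptors pass. In bulk tissue, fewer cells of a type and less RNA per cell cannot be told apart.

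**Figure D1:**
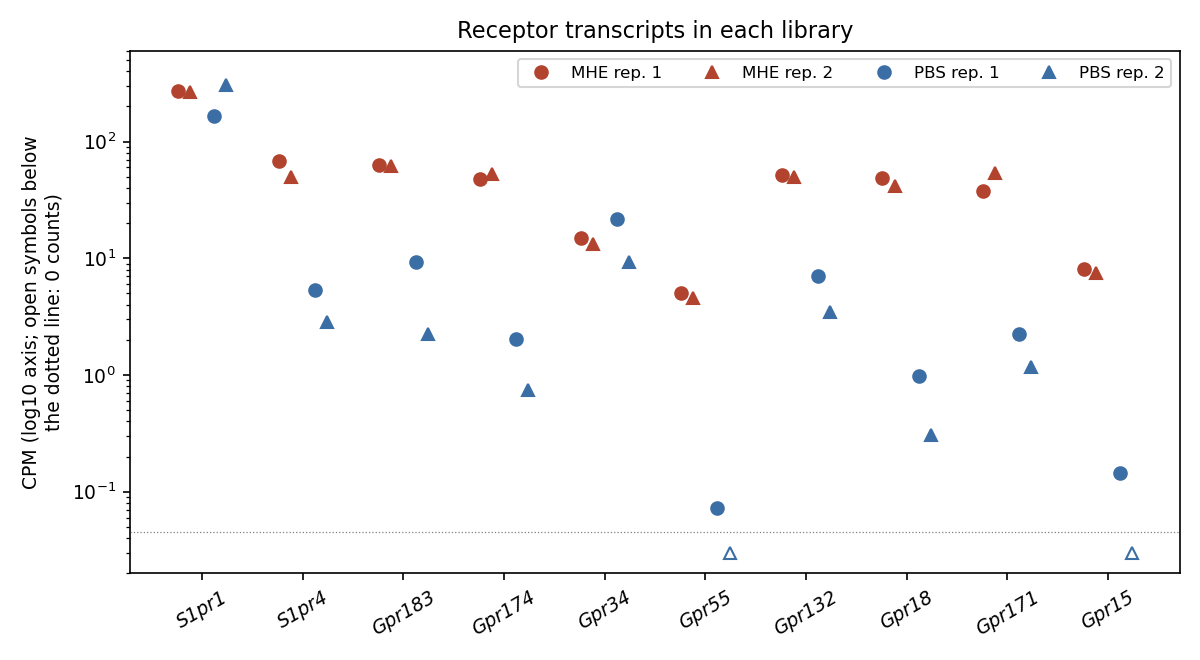
CPM of each receptor gene (log10 axis) in the 4 libraries, red for MHE and blue for PBS, circles for replicate 1 and triangles for replicate 2, with open symbols below the dotted line for libraries at 0 counts. The red and blue symbols are apart for 8 genes and overlap for S1pr1 and Gpr34.

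The promoters shown are those of the 4 receptors whose start regions hold the core letters read by RUNX transcription factors. This motif was picked because it was the most frequent in the receptors' promoters of the 4 motifs searched. Promoter sequences of RefSeq (GRCm38.p6, the assembly of mm10) matched 7 receptors: Gpr15, Gpr18, Gpr55, Gpr132, Gpr174, Gpr183 and S1pr4. Each runs from 250 bases before to 50 bases after the annotated start, 5′ to 3′ on the gene's own strand. Capitals mark the RUNX core (TGTGGT or its reverse complement ACCACA) and the ETS core (AGGAAG or CTTCCT), searched on both strands and not overlapping each other here. The regions are chr16:58718823-58719122 for Gpr15, chr14:121915839-121916138 for Gpr18, chr1:85961006-85961305 for Gpr55 and chr12:112860867-112861166 for Gpr132, all on the minus strand.
Gpr15: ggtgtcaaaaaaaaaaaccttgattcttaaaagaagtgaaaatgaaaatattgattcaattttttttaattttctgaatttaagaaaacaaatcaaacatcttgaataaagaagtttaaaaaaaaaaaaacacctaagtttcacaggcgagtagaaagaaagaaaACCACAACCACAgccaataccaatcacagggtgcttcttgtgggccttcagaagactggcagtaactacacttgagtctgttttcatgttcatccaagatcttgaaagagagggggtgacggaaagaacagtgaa
Gpr18: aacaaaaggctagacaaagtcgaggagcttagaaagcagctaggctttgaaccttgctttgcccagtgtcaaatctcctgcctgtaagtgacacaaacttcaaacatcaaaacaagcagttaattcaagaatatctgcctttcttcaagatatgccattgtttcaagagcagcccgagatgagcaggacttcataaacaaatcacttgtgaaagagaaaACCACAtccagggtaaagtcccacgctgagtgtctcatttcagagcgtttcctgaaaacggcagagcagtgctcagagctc
Gpr55: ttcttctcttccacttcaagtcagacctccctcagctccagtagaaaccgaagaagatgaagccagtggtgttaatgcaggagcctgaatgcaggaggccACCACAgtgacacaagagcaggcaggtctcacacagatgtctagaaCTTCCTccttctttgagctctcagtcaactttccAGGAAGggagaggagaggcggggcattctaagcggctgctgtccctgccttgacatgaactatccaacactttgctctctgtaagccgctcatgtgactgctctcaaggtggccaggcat
Gpr132: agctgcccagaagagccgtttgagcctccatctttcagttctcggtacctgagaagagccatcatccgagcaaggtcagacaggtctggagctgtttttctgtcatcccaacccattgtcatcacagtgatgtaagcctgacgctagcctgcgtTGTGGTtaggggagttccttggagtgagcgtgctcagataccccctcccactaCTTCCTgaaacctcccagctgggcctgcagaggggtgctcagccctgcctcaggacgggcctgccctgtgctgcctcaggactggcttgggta

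The RUNX core was present in these 4 of 7 promoters and in 16.8% of all 32851 promoters of the same length. Gpr15 held it as a direct repeat, with first letters 85 and 79 bases before the start. In Gpr18, Gpr55 and Gpr132 it began 31, 150 and 96 bases before the start. The ETS core was in 2 of the 7 (Gpr55 and Gpr132) and in 35.4% of all promoters, the CACCC box (CCACCC or GGGTGG) in 2 (Gpr174 and S1pr4) and 31.5%, and the TATA box (TATAAA or TTTATA) in 0 and 13.6%. A match of 6 letters is a description of the sequence and does not show that a factor binds. CpG dinucleotides numbered at most 5 in 6 of the 7 promoters and in 43.6% of all promoters.

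The receptor genes share a compact coding region. In GENCODE M21 the coding sequence lay in 1 exon in every annotated transcript of 9 of the 10 genes, all but Gpr132, compared with 15.7% of 21951 protein-coding genes. Gpr18 (chromosome 14, 121911434 to 121915888) and Gpr183 (chromosome 14, 121952331 to 121965193) are neighbours 36442 bases apart, and both lie on the opposite strand within Ubac2 without sharing exon bases. Gpr171 lies likewise within Med12l, and Gpr34 overlaps Cask. Exons of Gpr15 share 204 bases with Cpox and those of Gpr55 share 71 bases with 4933407L21Rik, also on the opposite strand. The sources used here do not state whether counting used strand, so reads in those overlaps cannot be assigned.

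Both receptors for sphingosine 1-phosphate were read in every library. S1pr1 (chromosome 3, 115710433 to 115715055), the receptor that lets lymphocytes leave lymph nodes and that also holds blood vessel endothelium together, had 271 and 268 CPM in MHE replicates 1 and 2, against 164 and 303 CPM in PBS replicates 1 and 2. The 2 saline libraries thus lay on either side of both extract libraries. Its log2 fold change, MHE over PBS, was 0.21 ± 0.36 (SE), 0.72 without PBS replicate 2 and -0.18 without PBS replicate 1. Beside it, the summed level of 8 blood endothelial markers was 938 and 934 CPM in the MHE libraries, against 1062 and 1921 CPM in the PBS libraries, all 8 with negative log2 fold changes and 0 past the threshold (1 at an unadjusted p under 0.05, 1 lower with DESeq2, 0 with limma-voom, and 5 lower without PBS replicate 1), and its part in the S1pr1 level was not tested.

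S1pr4 (chromosome 10, 81497745 to 81500137), the sphingosine 1-phosphate receptor found mainly on blood and lymphoid cells, had 67.8 and 49.5 CPM in MHE replicates 1 and 2 and 5.34 and 2.87 CPM in PBS replicates 1 and 2. Both extract libraries were above both saline libraries, with a log2 fold change of 3.84 ± 0.39. In raw counts that was 2253 and 1411 reads with the extract and 148 and 85 with saline. The difference of S1pr1 and S1pr4 in fold change was not tested.

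Gpr183, also called EBI2, binds 7α,25-dihydroxycholesterol and moves B cells, dendritic cells and helper T cells to the edges of follicles. Its level was 62.6 and 61.4 CPM in MHE replicates 1 and 2 and 9.31 and 2.26 CPM in PBS replicates 1 and 2. The groups did not overlap, yet the saline libraries differed from each other by 2.01 on the log2 scale, the widest gap among the receptors with reads in both. Its log2 fold change was 3.42 ± 0.68, not past the threshold with all libraries (past it at 4.76 with PBS replicate 1 left out, and at 2.74 with PBS replicate 2 left out).

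The receptors for lysophosphatidylserine were Gpr174 and Gpr34. Gpr174 (chromosome X, 107255878 to 107296771), carried by T and B cells, had 48.2 and 53.2 CPM in MHE replicates 1 and 2, against 2.02 and 0.744 CPM in PBS replicates 1 and 2. All of its extract values were above its saline values, with a log2 fold change of 5.20 ± 0.52 (6.07 without PBS replicate 1).

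Gpr34 (chromosome X, 13622650 to 13640859), known from microglia, macrophages and mast cells, had 14.9 and 13.2 CPM in MHE replicates 1 and 2 and 21.5 and 9.26 CPM in PBS replicates 1 and 2. The extract values lay between the saline values. Its log2 fold change was -0.13 ± 0.43, with 0.59 when PBS replicate 1 was left out and -0.60 when PBS replicate 2 was. The 9 macrophage markers summed to 2165 and 2679 CPM with the extract and to 3697 and 1657 CPM with saline, with 0 past the threshold (0 at an unadjusted p under 0.05, 0 with DESeq2 and 0 with limma-voom). The 6 mast cell markers summed to 273 and 158 CPM against 146 and 65.4 CPM, also with 0 (1 at an unadjusted p under 0.05, 1 with DESeq2, 0 with limma-voom, and 4 without PBS replicate 1). Their part in the Gpr34 level was not tested.

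Gpr55 (chromosome 1, 85933221 to 85991583), a receptor for lysophosphatidylinositol, was close to absent with saline. It had 169 and 129 counts in MHE replicates 1 and 2 (5.09 and 4.53 CPM), against 2 counts in PBS replicate 1 and none (0) in PBS replicate 2. The ratio of the group totals was 138, with a 95% counting interval of 38.0 to 1148 that covers counting error only. The fitted log2 fold change was 6.93 ± 0.96, and 5.99 without PBS replicate 2.

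Gpr132 (chromosome 12, 112850873 to 112868416) answers to acidity and to oxidised fatty acids and is present on lymphocytes and macrophages. Its level was 51.7 and 50.1 CPM in MHE replicates 1 and 2 and 7.0 and 3.48 CPM in PBS replicates 1 and 2. The groups did not overlap, and its log2 fold change of 3.28 ± 0.39 was the smallest among the 7 receptors past the threshold.

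Gpr18, for which N-arachidonoyl glycine has been proposed as a ligand, is a receptor of lymphocytes. Its level was 48.9 and 41.5 CPM in MHE replicates 1 and 2 and 0.975 and 0.304 CPM in PBS replicates 1 and 2. Extract libraries held 1625 and 1183 reads of it, against 27 and 9 in saline libraries. With 70.7-fold higher mean CPM and a log2 fold change of 6.15 ± 0.56 (7.18 when PBS replicate 1 was left out and 5.54 when PBS replicate 2 was), it had the largest difference among receptors with reads in every library. Its neighbour Gpr183 had a 10.7-fold higher mean.

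Gpr171 (chromosome 3, 59096448 to 59101821), a receptor of T cells for the peptide BigLEN, was the only receptor besides Gpr174 with more CPM in MHE replicate 2 than in MHE replicate 1. Its level was 37.7 and 53.3 CPM in MHE replicates 1 and 2 and 2.24 and 1.18 CPM in PBS replicates 1 and 2, without overlap. Its log2 fold change was 4.73 ± 0.42.

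Gpr15 (chromosome 16, 58716643 to 58718872), which directs T cells to the large intestine and the skin, had 270 and 213 counts in MHE replicates 1 and 2 (8.13 and 7.48 CPM), against 4 counts in PBS replicate 1 and none (0) in PBS replicate 2. The ratio of the group totals was 112 (95% counting interval 43.5 to 413), and the fitted log2 fold change was 6.71 ± 0.99 (5.73 without PBS replicate 2). Gpr15 and Gpr55 had under 10 counts in both saline libraries and passed the filter on low counts through the extract libraries alone, so that they had to differ in order to be tested.

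**Figure D2:**
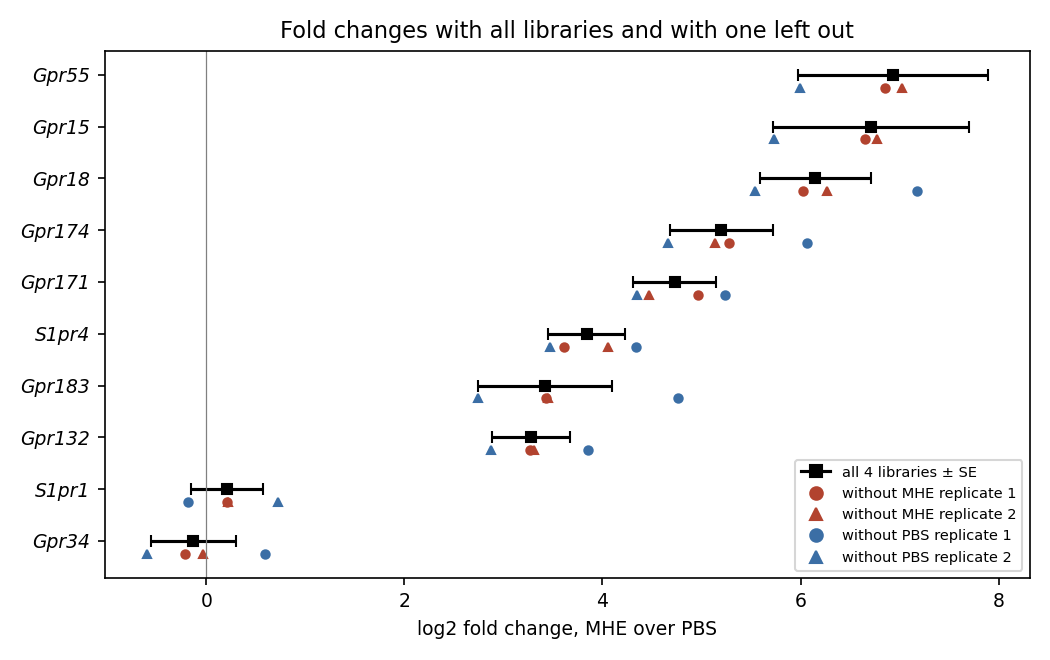
Log2 fold change of each receptor, MHE over PBS, with all 4 libraries (black squares, bars are SE) and with 1 library left out (small symbols just below). Values of Gpr15 and Gpr55 without PBS replicate 1 are left out because the remaining saline library held 0 counts. S1pr1 and Gpr34 lie near 0 and change sign when a saline library is left out, and the other 8 lie between 2.74 and 7.18 in every setting drawn.

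Within each group the receptors kept different orders. Levels were compared between genes as RPKM, the CPM divided by the exon length in kilobases, using all exons of a gene in GENCODE M21. With the extract, S1pr1 led at 88.4 ± 0.593 RPKM (SD, n = 2). Gpr18 (30.2 ± 3.49), S1pr4 (24.6 ± 5.42), Gpr183 (21.5 ± 0.296), Gpr171 (20.4 ± 4.97) and Gpr132 (18.7 ± 0.415 RPKM) followed, and the ranges of neighbours among these 5 overlapped, although Gpr18 was above S1pr4 within each library. Gpr174 at 9.39 ± 0.654, Gpr34 at 6.72 ± 0.598, Gpr15 at 4.76 ± 0.281 and Gpr55 at 1.29 ± 0.106 RPKM each had a range wholly below that of the gene before it. Taking the longest transcript instead, a choice made after the data were seen, exchanged Gpr171 and Gpr132 with the extract and changed no other rank in either group.

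With saline, S1pr1 again led, at 76.6 ± 32.2 RPKM, but Gpr34 was second at 7.35 ± 4.13 RPKM, and the range of each lay wholly above that of the next gene. Gpr183 (2.01 ± 1.73), Gpr132 (1.93 ± 0.917) and S1pr4 (1.72 ± 0.732 RPKM) came next with overlapping ranges, although Gpr132 was above S1pr4 within each library. The range of S1pr4 lay wholly above that of Gpr171 (0.769 ± 0.335). The ranges of Gpr171 and Gpr18 (0.427 ± 0.316) overlapped, as did those of Gpr18 and Gpr174 (0.256 ± 0.167 RPKM), while the order of these 3 was the same within each library. Gpr15 and Gpr55 were last, at 0.0441 ± 0.0623 and 0.0097 ± 0.0137 RPKM. S1pr1 and Gpr34 together made up 41.7% and 42.5% of the summed RPKM of the 10 receptors in the extract libraries and 86.3% and 96.2% in the saline libraries.

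**Figure D3:**
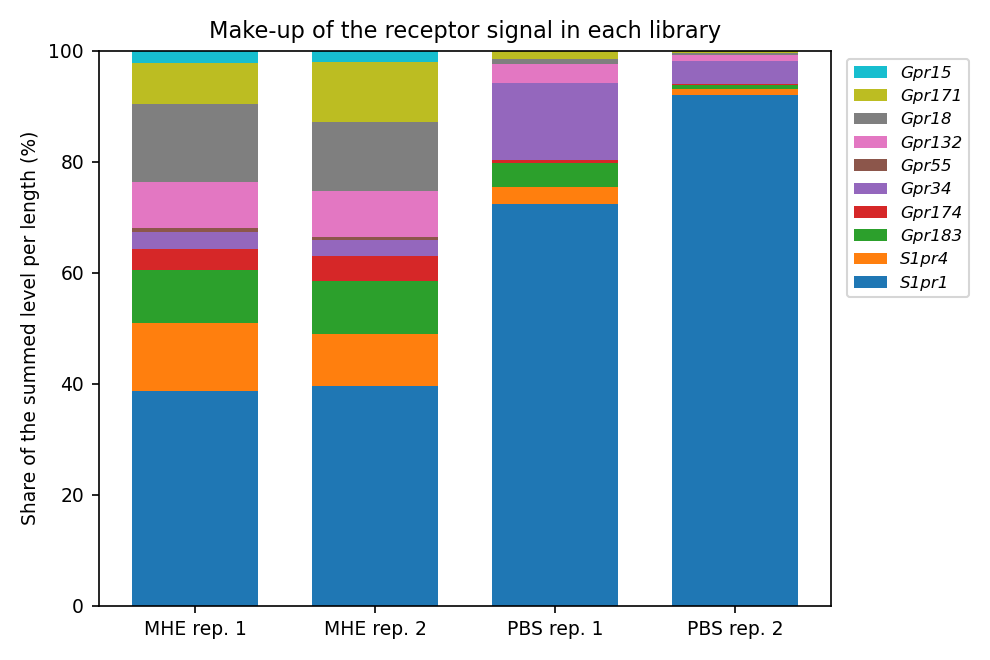
Share of each receptor (%) in the summed level per kilobase of the 10 receptors, stacked for each of the 4 libraries. S1pr1 takes 38.6% and 39.6% in the MHE libraries and 72.5% and 92.1% in the PBS libraries.

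The saline libraries differed from each other more than the extract libraries did for each of the 8 receptors with reads in every library. PBS replicate 1 was above PBS replicate 2 by 0.88 to 2.01 on the log2 scale for 7 of them and below it by 0.88 for S1pr1, while the extract libraries differed by at most 0.50 in size. Gpr15 and Gpr55, at 0 in PBS replicate 2, have no such gap. Summed markers of T cells, B cells and lymph node stroma were likewise higher in PBS replicate 1 than in PBS replicate 2, by 0.90, 2.90 and 3.31 (log2). So were those of macrophages (1.16), mast cells (1.16), NK cells (0.97), lymphatic endothelium (0.64) and adipocyte progenitors (0.23). Those of dendritic cells (-0.10), adipocytes (-0.56) and blood endothelium (-0.85) were lower. T cell markers summed to 1262 and 973 CPM in MHE replicates 1 and 2 and to 54.9 and 29.5 CPM in PBS replicates 1 and 2, and B cell markers to 2237 and 1778 CPM against 153 and 20.4 CPM. Lymph node stroma markers summed to 813 and 478 CPM with the extract and to 143 and 14.5 CPM in PBS replicates 1 and 2, with Glycam1 at 0 in PBS replicate 2, Madcam1 at 0 in PBS replicate 1 and Ccl19 at 0 in every library.

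Past the threshold of edgeR's test, all 12 T cell markers, 4 of 12 B cell markers and 2 of 6 NK cell markers rose. So did 4 of 6 dendritic cell markers, 3 of the 5 tested lymph node stroma markers and 1 of 6 lymphatic endothelial markers. None (0) passed as lower in these lists. Over all tested genes 3.97% rose and 0.963% fell. All 12 B cell markers were higher in both MHE libraries than in both PBS libraries. In the same order of lists, 12, 11, 4, 5, 4 and 4 markers rose with DESeq2, and 12, 7, 3, 4, 3 and 2 with limma-voom. Glycam1, 1 of the stroma markers that rose, had 2 and 0 counts in PBS replicates 1 and 2 and entered the test through the extract libraries alone. Madcam1, which did not pass, had 0 and 6 counts there and entered the test in the same way. Both had to differ in order to be tested, and the log2 fold change of Madcam1, 4.09, was the median of the stroma list. The median log2 fold changes of the 6 lists, in that order, were 5.01, 4.65, 2.43, 3.31, 4.09 and 1.43 with all libraries. With PBS replicate 1 left out they were 6.16, 8.17, 3.38, 3.81, 6.16 and 1.59. With PBS replicate 2 left out they were 4.44, 3.84, 1.86, 2.89, 3.74 and 1.11. NK cell markers summed to 62.7 to 67.9 CPM with the extract and 7.40 to 14.5 CPM with saline, dendritic cell markers to 90.1 to 143 against 25.8 to 27.7 CPM, and lymphatic endothelial markers to 235 to 237 against 71.5 to 111 CPM. The part of these cell types in the receptors' levels was not tested.

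**Figure D4:**
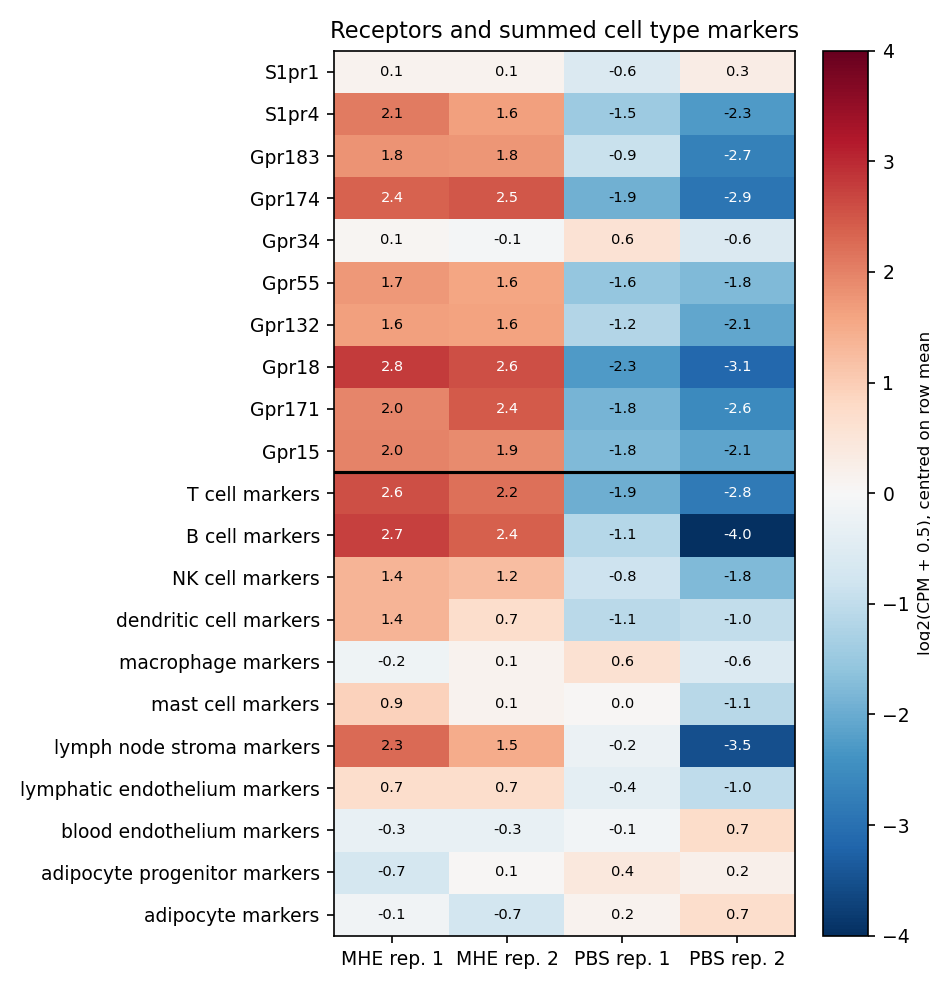
Log2(CPM + 0.5) of each receptor (above the line) and of the summed markers of each cell type (below it), centred on the row's mean over the 4 libraries, with the value printed in each cell. The 8 receptors other than S1pr1 and Gpr34 are red in both MHE libraries and blue in both PBS libraries, as are the T cell, B cell, NK cell, dendritic cell, lymph node stroma and lymphatic endothelium rows.

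The receptors' mean profile, each centred on its own mean of log2 CPM, was 1.98 and 1.92 in MHE replicates 1 and 2 and -1.42 and -2.49 in PBS replicates 1 and 2. S1pr4 was nearest to it, with a root mean square difference of 0.155 log2 units over the 4 libraries, and Gpr34 farthest, at 1.960. Among 12610 other genes averaging 1 or more on the log2 CPM scale, the 6 closest were Itgal, the alpha chain of the leukocyte integrin LFA-1 (0.079), Pou2f2, the lymphocyte factor Oct-2 (0.109), Mreg (0.111), Fam78a (0.114), Arhgap4 (0.125) and Clec2i (0.141). Itgal had 151 and 137 CPM in the MHE libraries, against 12.6 and 6.86 CPM in the PBS libraries. This likeness rests on 4 libraries of 2 groups. The profile averages receptors chosen with this contrast known, so the genes nearest to it had to be higher with the extract. Without PBS replicate 1 the log2 fold changes of Pou2f2, Arhgap4 and Clec2i were 4.54, 4.29 and 4.25, against 3.92, 3.71 and 3.59 with all libraries.

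Further receptors of the same ligand families were read beside them. Of the 9 other receptors for sphingosine 1-phosphate and lysophosphatidic acid, 0 passed the edgeR quasi-likelihood test (4 at an unadjusted p under 0.05, 3 higher and 1 lower with DESeq2, and 1 higher with limma-voom), with a median log2 fold change of 0.18. S1pr3, a receptor of vessels and smooth muscle, had 35 and 43.7 CPM in MHE replicates 1 and 2 and 24 and 18.7 CPM in PBS replicates 1 and 2 (log2 fold change 0.88 ± 0.24, adjusted p = 0.0955). Lpar3 had -1.73 ± 0.40 (adjusted p = 0.0736), Lpar2, the form found on lymphocytes, 3.85 ± 0.94 (0.0827) and Lpar5 1.73 ± 0.53 (0.121). Without PBS replicate 1 S1pr3, Lpar2, Lpar3 and Lpar5 passed, at 1.06, 6.13, -1.68 and 2.65, and without PBS replicate 2 Lpar2 and Lpar3 passed, at 3.01 and -1.78.

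Of 28 receptors for other lipid mediators, 23 were tested, 4 rose and 0 fell, with a median log2 fold change of 0.60. Over all tested genes 3.97% rose and 0.963% fell. P2ry10, a lysophosphatidylserine receptor of lymphocytes, averaged 94.2 ± 25.9 CPM in MHE libraries, against 4.75 ± 2.37 CPM in PBS libraries (SD, n = 2 each), a log2 fold change of 4.31 ± 0.46 (adjusted p = 0.0238). The cannabinoid receptor of immune cells, Cnr2, stood at 74.2 ± 16.9 against 8.84 ± 5.77 CPM (3.07 ± 0.53, adjusted p = 0.0470, 0.0545 without the low-count filter). The thromboxane receptor Tbxa2r stood at 11.4 ± 1.38 against 1.30 ± 0.406 CPM (3.13 ± 0.38, adjusted p = 0.0251). Ffar1, a receptor for free fatty acids, had 198 counts with the extract against 2 with saline, 91.9 times as much, with 25.1 to 764 as the 95% interval by counting error alone and an adjusted p of 0.0424. With 2 and 0 counts in PBS replicates 1 and 2, Ffar1 entered the test through the extract libraries alone and had to differ to be tested. Without PBS replicate 1 P2ry10 and Cnr2 had 4.92 and 3.95, and without PBS replicate 2 Ffar1 had 5.41.

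Among the 65 other Gpr-numbered symbols, 40 were tested, 2 rose and 0 fell (16 at an unadjusted p under 0.05), with a median of -0.21. Leaving out PBS replicate 1 gave 8 that rose and 4 that fell, and leaving out PBS replicate 2 gave 5 and 4. Gpr83, which regulatory T cells carry, had 179 counts with the extract and 0 with saline, at least 55.4-fold higher against a floor of 3 counts over the saline group (adjusted p = 0.0335). Gpr83 and Gpr25 entered the test through the extract libraries alone, so that they had to differ in order to be tested. Gpr25 likewise had 48 against 0 counts, at least 14.9-fold higher, with an adjusted p of 0.0607. Gpr173, Gpr141b and Gpr21 had log2 fold changes of -2.49, 1.91 and -3.43 at adjusted p of 0.0537, 0.0674 and 0.0839. Gpr21 had 2 and 2 counts in MHE replicates 1 and 2, against 14 and 29 in PBS replicates 1 and 2. It entered the test through the saline libraries alone, so that it too had to differ in order to be tested. Gpr25, Gpr173, Gpr141b and Gpr21 passed without PBS replicate 1 (the last 3 at -2.62, 2.11 and -3.85), and Gpr25, Gpr173 and Gpr141b without PBS replicate 2 (Gpr173 and Gpr141b at -2.35 and 1.73).

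Enzymes that make or remove the receptors' ligands were taken in separate lists. Of 13 genes for synthesis, export and breakdown of sphingosine 1-phosphate, 12 were tested and 0 passed edgeR's test (4 at an unadjusted p under 0.05, 1 higher and 1 lower with DESeq2, 0 with limma-voom), with a median of -0.12. The exporter Spns2 averaged 51.2 ± 9.62 CPM in MHE libraries, against 26.4 ± 1.23 CPM in PBS libraries (0.95 ± 0.22, adjusted p = 0.0727), and the phosphatases Plpp2, Plpp1 and Sgpp2 had -1.23 ± 0.31, -0.66 ± 0.20 and 1.99 ± 0.72 (adjusted p = 0.0845, 0.121 and 0.157). Plpp2 and Sgpp2 passed without PBS replicate 1, at -1.27 and 3.14.

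The 4 enzymes around the Gpr183 ligand were all tested and 0 passed edgeR's test (0 at an unadjusted p under 0.05, 0 with DESeq2 and 0 with limma-voom). Ch25h, which makes 25-hydroxycholesterol, had 4.88 and 4.91 CPM in MHE replicates 1 and 2 and 2.78 and 0.744 CPM in PBS replicates 1 and 2 (1.47 ± 0.68, adjusted p = 0.226, past the threshold without PBS replicate 1 at 2.70). Cyp7b1, which adds the 7α-hydroxyl group, had -0.58 ± 0.59 and a value of 0.16 without PBS replicate 1, while Hsd3b7, which degrades the ligand, had -0.34 ± 0.19 and Cyp27a1 -0.44 ± 0.22 (adjusted p between 0.248 and 0.548).

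Of 14 lysophospholipid and N-acyl lipid enzymes, 13 were tested, 0 rose and 1 fell. Leaving out PBS replicate 1 gave 3 that rose and 1 that fell, and leaving out PBS replicate 2 gave 1 and 4. Napepld, which releases N-acylethanolamines, fell to 19.8 ± 1.61 CPM with the extract, against 43.1 ± 4.91 CPM with saline (-1.12 ± 0.20, adjusted p = 0.0495, 0.0599 under library totals alone). Ddhd1, a phospholipase that releases lysophosphatidylinositol, had 0.90 ± 0.20 (adjusted p = 0.0686), Abhd12, which hydrolyses lysophosphatidylserine, -1.12 ± 0.30 (0.0936) and Pla2g6 -0.82 ± 0.23 (0.102). Ddhd1 passed without PBS replicate 1 (1.03) and Abhd12 without PBS replicate 2 (-1.41).

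Of the peptide and chemokine ligands, Ccl21a, a chemokine of lymph node stroma reported to bind Gpr174 and also a marker in that list, had 630 and 375 CPM in MHE replicates 1 and 2, against 124 and 1.22 CPM in PBS replicates 1 and 2. The saline libraries were far apart, and its log2 fold change was 3.0 ± 1.77 (adjusted p = 0.319), 8.67 once PBS replicate 1 was left out and 2.02 once PBS replicate 2 was, both past the threshold. Copies of Ccl21a are nearly identical, so its counts are uncertain. Pcsk1n, the precursor of BigLEN, had 0 counts with the extract and 0.361 and 0.237 CPM in PBS replicates 1 and 2. Ccl19 was at 0 throughout. Whether it was unexpressed or its reads were lost in counting cannot be told apart here.

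**Figure D5:**
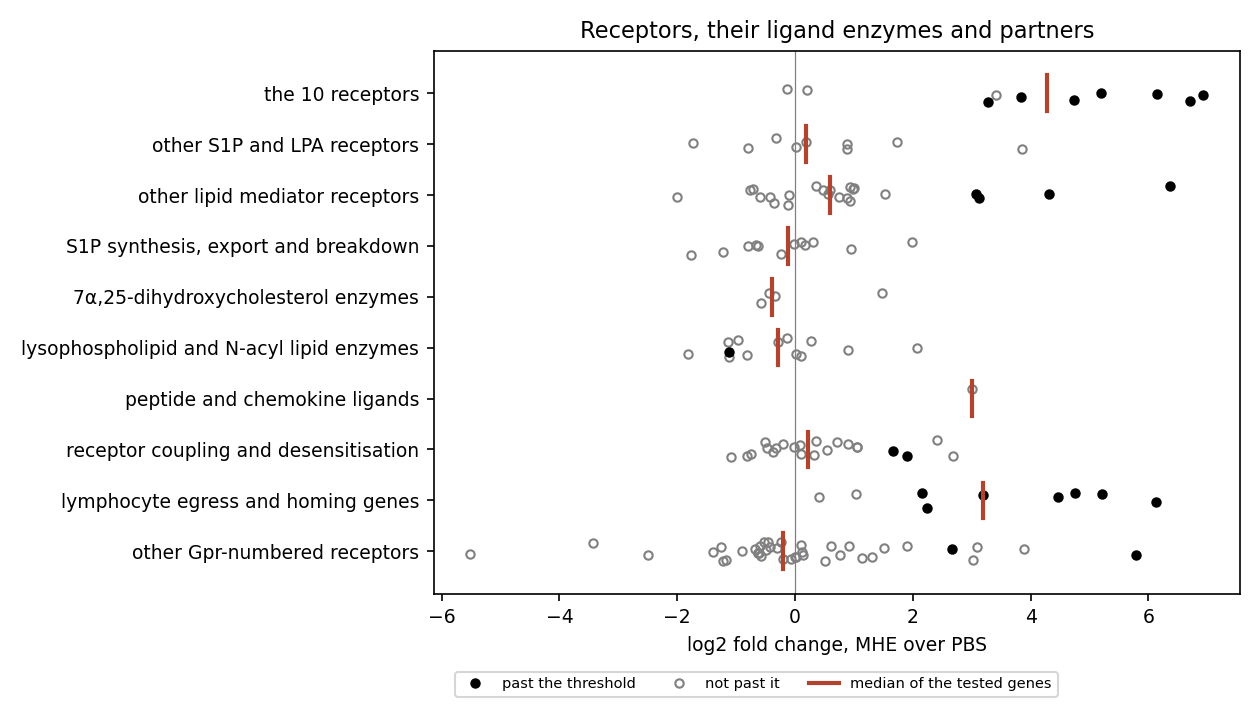
Log2 fold change, MHE over PBS, of each tested gene in the 10 receptors and in 9 related lists, filled where past the threshold over all genes, with the median as a red bar. The genes without a count in 1 group are drawn at the bound set by a floor of 3 counts. The receptors and the egress and homing genes have medians of 4.28 and 3.20, and the other lists with more than 1 tested gene lie between -0.39 and 0.60.

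Most of the genes that steer lymphocyte egress and homing together with S1pr1 were higher with the extract. Of the 9 listed, 7 rose (among them Cd69, Itgb7, Cxcr4, Cxcr5, Ccr7 and Itga4) and 0 fell, with a median log2 fold change of 3.20. Over all tested genes 3.97% rose and 0.963% fell. The list was chosen with earlier results of these data known, so nothing is read from its share. Without the low-count filter 4 of the 9 passed. Cd69, which takes S1PR1 protein off the cell surface, averaged 27.3 ± 3.57 CPM in MHE libraries, against 1.25 ± 1.05 CPM in PBS libraries (4.46 ± 0.66, adjusted p = 0.0381). The gut-homing integrin chain Itgb7 stood at 109 ± 26.5 against 11.9 ± 1.86 CPM (3.20 ± 0.28, adjusted p = 0.0210), the chemokine receptor Cxcr4 at 121 ± 11 against 25.6 ± 2.79 CPM (2.24 ± 0.22, adjusted p = 0.0212), and the follicle-homing receptor Cxcr5 at 112 ± 14.1 against 4.19 ± 3.68 CPM (4.75 ± 0.73, adjusted p = 0.0409). Without PBS replicate 1 Cd69 and Cxcr5 had 5.72 and 6.12, without PBS replicate 2 they had 3.79 and 4.06, and without the low-count filter Cxcr5 had an adjusted p of 0.0549.

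The 2 genes of that list that did not pass are transcription factors known to drive S1pr1 and homing genes in lymphocytes, and were picked once their values were known. Klf2 averaged 172 ± 14.9 CPM in MHE libraries, against 83.9 ± 35.9 CPM in PBS libraries, without overlap (1.04 ± 0.35, adjusted p = 0.141). Foxo1 had 162 and 209 CPM in the MHE libraries, against 114 and 165 CPM in the PBS libraries, with overlap (0.41 ± 0.29, adjusted p = 0.394).

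Of 23 genes for G protein coupling and desensitisation, 22 were tested, 2 rose and 0 fell, with a median of 0.22. With DESeq2 7 rose and 1 fell, and without PBS replicate 1 9 rose and 2 fell. Grk2, a kinase that switches off activated receptors, averaged 262 ± 21.6 CPM in MHE libraries, against 82.5 ± 3.91 CPM in PBS libraries (1.67 ± 0.23, adjusted p = 0.0330). Grk6, the related kinase of immune cells, stood at 181 ± 43.1 against 48.6 ± 0.454 CPM (1.90 ± 0.26, adjusted p = 0.0327). Rgs14 and Rgs19, which shorten G protein signals, had 2.69 ± 0.49 and 1.06 ± 0.22 (adjusted p = 0.0502 and 0.0606) and passed without PBS replicate 1, at 3.40 and 1.14. Rgs14 also passed without PBS replicate 2 (2.22).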

How the data were processed

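Raw read counts, whole numbers for each gene symbol, were deposited by the authors in 1 file per library. The tools named, per the submitters' processing notes, are TopHat2, limma and edgeR, with build mm10. Versions, counting program, annotation and use of strand were not given in the sources used here. Reads that map to several genes could be split or lost by that counting.

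The members and lists were chosen with earlier results of these data known. In edgeR 4.0.16 (R 4.3.3), genes passed filterByExpr (minimum count 10, minimum total 15), leaving 16196, and were scaled with TMM factors and tested with a robust quasi-likelihood fit, MHE against PBS, with Benjamini-Hochberg adjustment over all of them. SE was taken from the F statistic and the fold change. CPM uses the TMM factors, and RPKM divides it by exon length in GENCODE M21. Log2 CPM uses a prior count of 2. Gene coordinates and promoters are those of RefSeq on GRCm38, and a promoter's start can lie inside the gene's span. Strands, coding exons and overlaps of genes are those of GENCODE M21. Ratios on few counts carry exact Clopper-Pearson 95% intervals.

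All 10 receptors were named. Of each other list up to 4 genes with the smallest p were named (6 for the Gpr-numbered symbols), and lists of 5 or fewer in full. Some genes counted in these lists are not reported here by name. Gpr15lg matched no symbol and was not analysed here. Replicates were distinct libraries: their counts gave a chi-square over its degrees of freedom of 134.1 (MHE) and 165.7 (PBS). The fit was also tested on simulated data with 200 changed genes a draw. It recovered 5.6% of 2-fold changes, so it missed most of the smallest ones, and 66%, 94.2% and 97% of 4-, 16- and 64-fold changes. Unchanged genes made up 14.3% of its calls, above the 0.05 threshold, so passing it is weaker evidence than its nominal rate. That share belongs to 200 changed genes among 16196, and the share in the real data was not tested.

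Other settings tried were DESeq2 1.42.0, limma-voom (limma 3.58.1), DESeq2's size factors in edgeR, plain library totals, the quasi-likelihood fit's other mode, every gene unfiltered, only genes reaching 1 CPM in 2 libraries with 50 counts summed, a block for replicate number, and each library left out.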

Additional observations from a re-analysis of the deposited data

How the results depend on the processing

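Over all genes, 799 passed (643 higher with the extract and 156 lower), and 2951 with DESeq2 (58.1% higher). With 1 library left out, the count ran from 0 (without either MHE replicate, 2352 and 2596 genes at an unadjusted p under 0.05) to 2750 (2513 without PBS replicate 2, 50.9% higher), and the receptors' count from 0 (8 at an unadjusted p under 0.05) to 8, against 7 with all libraries. With 3 libraries the lone one of its group is assumed to vary like the pair of the other group. Gpr183 passed with DESeq2 and limma-voom. With the replicate number as a block, 764 genes and 5 receptors passed, without Gpr15 and Gpr55, and Ffar1, Napepld and Gpr83 missed the threshold while Rgs14 passed. The numbers are not said to pair libraries, and the difference between replicates 1 and 2 correlated between the groups at r = 0.1204 over genes, which are not independent. Library totals alone gave a median log2 fold change over all genes of 0.14, against -0.02 with TMM. Across settings that kept all libraries, the log2 fold changes of the 8 higher receptors stayed positive, between 3.25 and 7.22, and that of Gpr34 lay between -0.16 and 0.00. The cause of these differences was not tested. With 2 libraries a group, and 0 to 27 reads of Gpr15, Gpr18 and Gpr55 in saline libraries, the size of their fold changes is loosely bounded.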

Other observations

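Receptor counts were also set against summed marker counts of the same library, ratios chosen after the values were seen and given as descriptions. Values are given for replicates 1 and 2 in turn. Per 1000 counts of blood endothelial markers, S1pr1 had 288 and 287 counts with the extract and 154 and 158 with saline. The direction for S1pr1 depended on the marker list. Per 1000 counts of T cell markers, S1pr1 was lower with the extract, at 214 and 276 against 2987 and 10251. It was also lower, without overlap, with B cell, NK cell, dendritic cell, lymph node stroma and lymphatic endothelial markers. With adipocyte markers it was higher, and with macrophage, mast cell and adipocyte progenitor markers the groups overlapped. Per 1000 counts of macrophage markers, Gpr34 had 6.89 and 4.91 counts with the extract and 5.81 and 5.59 with saline, with overlapping groups. Per 1000 counts of mast cell markers, Gpr34 was lower with the extract, at 54.6 and 83.6 against 147 and 142, without overlap. Per 1000 counts of T cell markers, S1pr4 had 53.7 and 50.9 counts with the extract and 97.2 and 97.3 with saline, Gpr132 had 40.9 and 51.5 against 127 and 118, and Gpr171 had 29.8 and 54.8 against 40.7 and 40.0. Gpr18, by the same measure, had 38.8 and 42.7 counts with the extract and 17.7 and 10.3 with saline, so it was higher per T cell marker count with the extract while S1pr4 and Gpr132 were lower. Per 1000 counts of B cell markers, S1pr4 had 30.3 and 27.9 counts with the extract and 35 and 140 with saline. Gpr132 had 23.1 and 28.2 against 45.9 and 170, and Gpr18 had 21.9 and 23.4 against 6.38 and 14.9. These directions were those seen with T cell markers. The direction for S1pr4 and Gpr132 turned with the NK cell list. Per 1000 counts of NK cell markers, S1pr4 had 999 and 790 counts with the extract and 368 and 388 with saline, and Gpr132 had 761 and 799 against 483 and 470, while Gpr18 was again higher, at 721 and 663 against 67.2 and 41.1. The part of cell number and of RNA per cell in these ratios was not tested.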
